A study of Mus musculus with 20 samples.

Results

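The livers of fed mice with a liver-specific deletion of Mcl1 were compared with the livers of fed wild-type mice, across all 22206 probe sets of a mouse expression array. The comparison took the 10 arrays described as fed out of the 20 of the series, 5 labelled Fed Mcl1(L-/-) and 5 labelled Fed WT, each from a separate biological replicate. The other 10 arrays were of 5 Fasted Mcl1(L-/-) and 5 Fasted WT livers, from mice kept 1 to a cage on wire floors and deprived of food for 48 h. They entered the estimate of the spread, and their genotype difference is set beside that of the fed livers. Fed mice ate freely, and water was never withheld.

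The labels name Mcl1(F/F) mice, in which Mcl1 can be removed by Cre recombinase, and AAV-LP1-Cre, an adeno-associated virus that carries Cre. LP1 is a promoter built to be active in hepatocytes; which cells of these livers lost the gene was not measured. The same sentence on the floxed mice and the virus stands beside the WT samples. The labels do not say whether the WT mice carried the floxed allele or received a virus, and give no strain, sex, age or time since injection. A response to the virus or to Cre and a response to the loss of Mcl1 therefore cannot be told apart, and neither can differences in genetic background.

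MCL-1 is a member of the BCL2 family that keeps cells alive: at the outer mitochondrial membrane it binds the pore-forming proteins BAK and BAX and the BH3-only proteins that activate them. A shorter form lies inside mitochondria and is known for a part in cristae structure and fatty acid oxidation. Hepatocytes depend on MCL-1 and on BCL-XL, the product of Bcl2l1, and livers that lose MCL-1 are known for hepatocyte death with compensatory regeneration.

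Signals were summarised with the robust multi-array average and are given here as log2 signals, so that a difference of 1 is a doubling; they run from 1.34 to 12.6. The array medians lay between 3.36 and 3.47. Correlations between fed arrays were 0.985 to 0.990 within a group and 0.982 to 0.989 between the groups, and no pair of arrays held identical values. On the first principal component of the fed arrays, which carried 18.7% of the variance, 4 of the WT arrays lay between 7.72 and 20.7 and 4 of the Mcl1(L-/-) arrays between -27.2 and -5.01. The arrays that stood apart from their groups on this component were Mcl1(L-/-) replicate 4 at 8.47, among the WT arrays, and WT replicate 1 at -3.21. The latter was nearer to the Mcl1(L-/-) arrays than to the other WT arrays. On the second component, with 13.4% of the variance, WT arrays ran from -6.32 to 21.4 and Mcl1(L-/-) arrays from -20.9 to 9.0. There WT replicate 1 was the highest array and Mcl1(L-/-) replicate 4 lay at -15.4. Their mean correlations with their own groups were 0.9868 and 0.9863. The lowest such mean was 0.986, in Mcl1(L-/-) replicate 1.

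Mcl1 itself separated the genotypes in every array. Its log2 signals were 7.46, 7.52, 7.29, 7.25 and 7.60 in the 5 fed WT livers and 6.24, 5.83, 6.05, 6.17 and 6.14 in the 5 fed Mcl1(L-/-) livers. Both arrays that stood apart above, at 6.17 and 7.46, had Mcl1 signals within the range of their labelled groups. The mean fell by 1.34 on the log2 scale (SE 0.12, 95% interval -1.58 to -1.10, adjusted p = 5.07e-07, limma), to 39.5% of the WT signal. Which exons the probe set covers was not analysed here. In the fasted livers the Mcl1 difference was -1.14 (SE 0.12), and the test of the change in this difference between feeding states gave 0.20 (interval -0.14 to 0.54, adjusted p = 0.706).

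Hepatocyte markers were high in every fed array, with a mean signal of 11.01 to 11.07 in WT and 10.99 to 11.07 in Mcl1(L-/-) livers. Alb, the gene of albumin, lay between 12.43 and 12.53 in the 10 arrays, at the top of the array's scale, where a difference between groups may not show. Over the 18 measured hepatocyte markers the median difference was -0.01, from -0.20 to 0.09, and none had an unadjusted p under 0.05. The largest were in Cebpa, a hepatocyte transcription factor, with -0.20 (SE 0.14), and Asgr2, a subunit of the asialoglycoprotein receptor, with -0.14 (SE 0.11; -0.09 without WT replicate 1).

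Few genes were called in the fed livers. At an adjusted p under 0.05, 8 of 22206 probe sets were called, or 0.036% of those tested, 5 higher and 3 lower in Mcl1(L-/-) livers, and 7 of them differed at least 2-fold. An unadjusted p under 0.05 was reached by 1429 probe sets, 755 higher (3.40%) and 674 lower (3.04%). The 5 arrays of one genotype all lay beyond the 5 of the other for 349 probe sets (1.57%), 179 of them higher. The median difference over all probe sets was 0.00, and 49.6% of them were above 0. The number called rose to 16 without Mcl1(L-/-) replicate 4, to 15 without WT replicate 1 and to 13 without Mcl1(L-/-) replicate 2. All 8 genes were among those called in each of these refits.

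**Figure D1:**
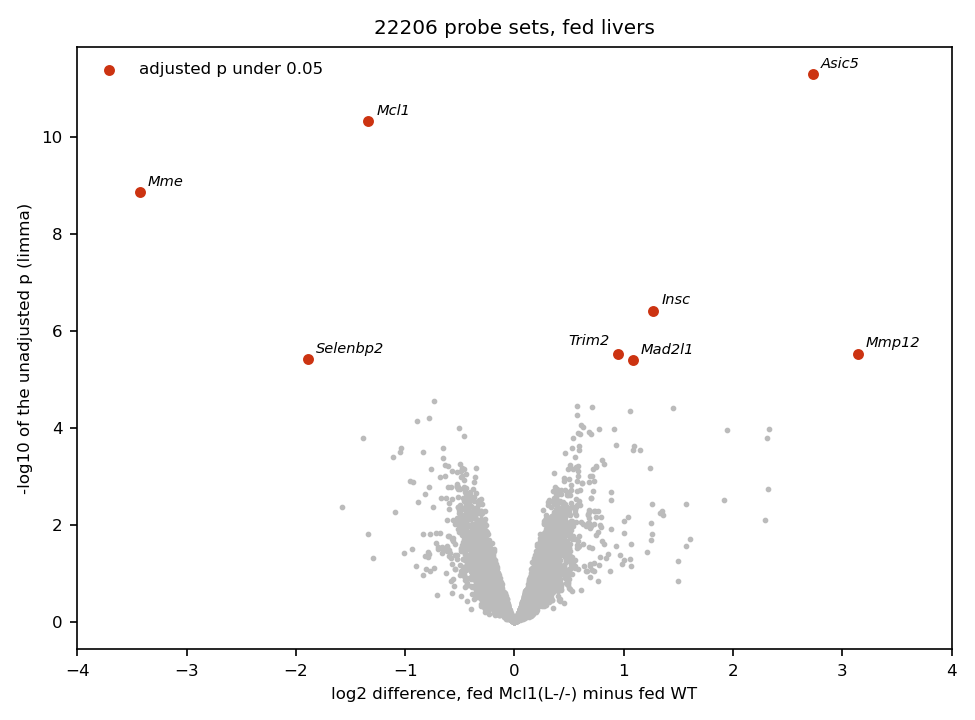
Difference in log2 signal between fed Mcl1(L-/-) and fed WT livers (5 arrays each, x axis) against the negative log10 of the unadjusted limma p (y axis), 1 point for each of the 22206 probe sets. The 8 called genes are in red and named, with Mme at -3.43 on the left and Mmp12 at 3.14 on the right.

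The 3 genes that fell were Mme, Selenbp2 and Mcl1. Mme encodes neprilysin, a membrane peptidase that cuts small peptide hormones. Its log2 signals were 6.56, 6.58, 6.68, 6.57 and 6.70 in fed WT livers and 2.59, 2.68, 2.61, 5.28 and 2.77 in fed Mcl1(L-/-) livers. All 5 WT livers were alike, 4 of the Mcl1(L-/-) livers were below the median probe set level of 3.41 in the WT group, and replicate 4 lay in between. The mean difference was -3.43 (SE 0.35, adjusted p = 9.82e-06), a 10.8-fold lower signal, and every refit without 1 fed array kept the call, with adjusted p up to 8.69e-05. Without Mcl1(L-/-) replicate 4 the Mme difference was -3.95. In fasted livers Mme was lower in WT as well, from 3.11 to 4.57, and lower again in Mcl1(L-/-) livers, from 2.18 to 2.62, a difference of -1.59 (adjusted p = 0.011).

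Selenbp2 encodes a selenium-binding protein of the liver that is more abundant in males. Its log2 signals were 8.03, 6.70, 5.94, 6.63 and 6.10 in WT livers and 5.75, 5.21, 4.28, 4.58 and 4.11 in Mcl1(L-/-) livers. The groups did not overlap, but the lowest WT array and the highest Mcl1(L-/-) array were close. The difference was -1.89 (SE 0.31, adjusted p = 0.0112), and the adjusted p was 0.0584 without Mcl1(L-/-) replicate 3, 0.0525 without replicate 5, 0.115 in a fit on the 10 fed arrays alone and 0.0639 with the variance trend. Its close copy Selenbp1, whose transcripts may share probes with it, differed by -0.46 (SE 0.12, adjusted p = 0.249). Of 21 male-biased liver genes measured, Selenbp2 was the only member called, and 14 had a higher mean in Mcl1(L-/-) livers, with a median of 0.12.

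The largest rise was in Mmp12, macrophage metalloelastase, an enzyme that macrophages secrete to break down elastin. Its log2 signals were 2.55, 2.78, 2.75, 2.97 and 2.41 in WT livers, below the median probe set level of 3.41 in that group, and 6.14, 7.34, 5.58, 4.32 and 5.79 in Mcl1(L-/-) livers. Every Mcl1(L-/-) liver was above every WT liver, with replicate 2 highest and replicate 4 lowest. The difference was 3.14 (SE 0.51, adjusted p = 0.0108), an 8.81-fold higher signal; the adjusted p was 0.0888 with the variance trend. Without Mcl1(L-/-) replicate 2 the Mmp12 difference was 2.76, and without replicate 4 it was 3.52. In the fasted livers, Mmp12 lay between 2.59 and 2.71 in WT and at 4.16, 3.52, 4.09, 6.74 and 2.52 in Mcl1(L-/-) livers, a difference of 1.57 that missed the threshold (adjusted p = 0.0803).

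Asic5, a sodium channel of the acid-sensing channel family that is known to respond to bile acids, rose in both feeding states. It was measured at 3.24, 3.76, 2.95, 3.04 and 3.35 in fed WT livers and at 5.23, 6.52, 6.03, 5.77 and 6.41 in fed Mcl1(L-/-) livers. The difference of 2.73 (SE 0.21, adjusted p = 1.11e-07), a 6.62-fold higher signal, had the smallest p of all probe sets. Fasted Mcl1(L-/-) livers were higher still, from 6.96 to 7.69 against 3.36 to 4.14 in fasted WT, a difference of 3.55 (adjusted p = 4.69e-10). The change in the difference between feeding states, 0.82, did not pass (adjusted p = 0.271).

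Smaller rises were called in Insc, Mad2l1 and Trim2. Insc encodes inscuteable, an adaptor that orients the mitotic spindle; its signals were 2.57 to 3.0 in WT livers and 4.84, 4.31, 3.67, 4.17 and 3.72 in Mcl1(L-/-) livers, a difference of 1.27 (SE 0.18, adjusted p = 0.0021). Mad2l1 encodes MAD2, a component of the spindle assembly checkpoint. It was measured at 2.71 to 3.14 in WT livers and at 3.98, 4.85, 4.08, 3.54 and 3.63 in Mcl1(L-/-) livers, a difference of 1.08 (SE 0.18, adjusted p = 0.0112). Both were below the median probe set level in WT livers, and all 5 Mcl1(L-/-) arrays were above it. The Mad2l1 call was lost without WT replicate 4 (adjusted p = 0.0599) and in the fit on the 10 fed arrays alone (adjusted p = 0.107).

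Trim2, an E3 ubiquitin ligase, rose in fed Mcl1(L-/-) livers. Its signals were 4.48, 4.53, 5.20, 4.26 and 4.06 in fed WT livers and 5.40, 5.77, 5.33, 5.49 and 5.31 in fed Mcl1(L-/-) livers, a difference of 0.95 (SE 0.16, adjusted p = 0.0108). It was lost without WT replicate 4 (adjusted p = 0.0518) and in the fit on the 10 fed arrays alone (adjusted p = 0.102). Fasted livers of either genotype lay between 5.57 and 6.08, with a difference of 0.05. The test of the change in the genotype difference gave -0.90 (SE 0.22) and did not pass (adjusted p = 0.0846).

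**Figure D2:**
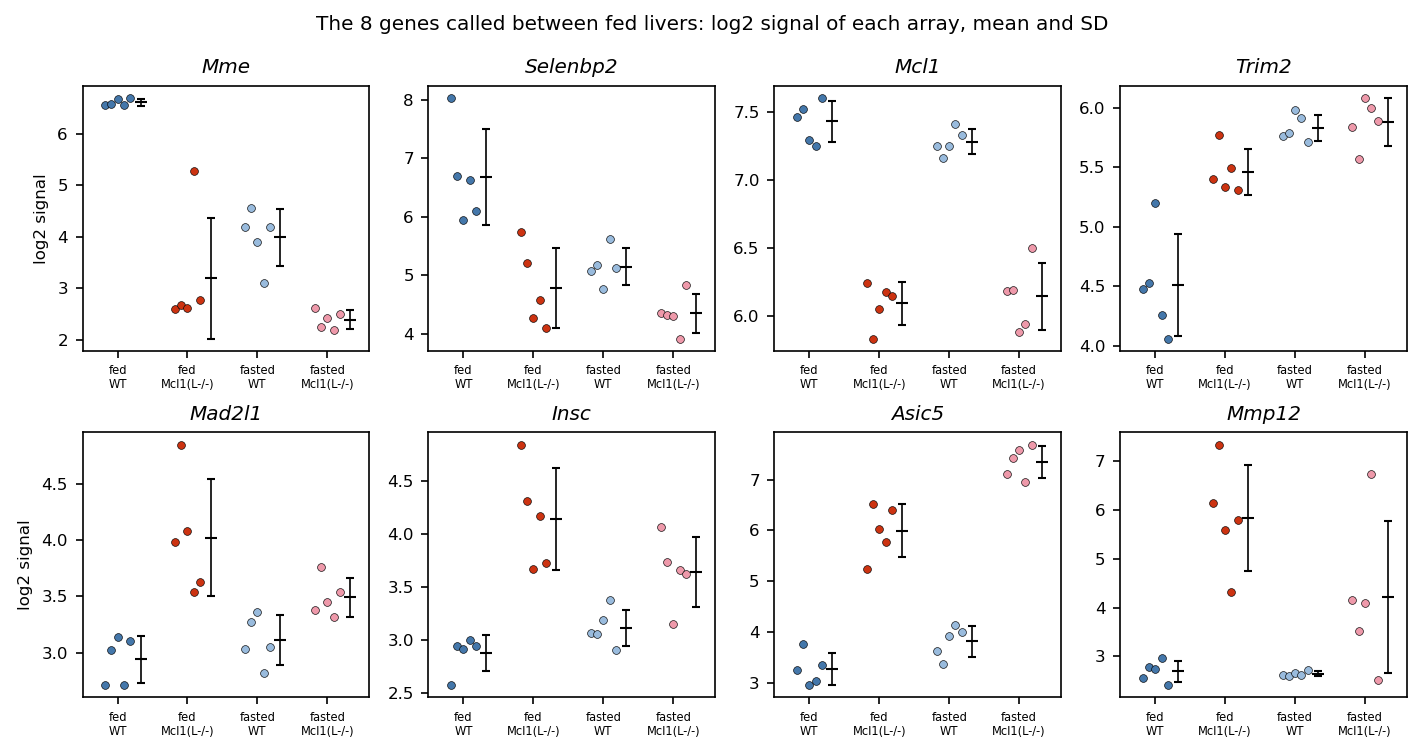
Log2 signals of the 8 genes called between fed livers, 1 point for each array in the 4 groups of 5, with the group mean and SD beside the points; the y axes differ between panels. Fed WT and fed Mcl1(L-/-) arrays do not overlap for any of the 8, Mme in Mcl1(L-/-) replicate 4 lies at 5.28 between the others and WT, and Asic5 stays high in the fasted Mcl1(L-/-) livers.

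Of the 8 called genes, 5 lie on chromosome 3, the chromosome of Mcl1: Mcl1, Mme, Selenbp2, Asic5 and Trim2. That chromosome holds 923 of the 19571 probe sets placed on a chromosome, or 4.72%. Non-overlapping groups were found for 3.79% of its probe sets, against 0 to 2.56% on the other 20 chromosomes, and an unadjusted p under 0.05 for 8.99%, against 4.25 to 8.86%. In the gene order of the reference mouse assembly, counted over the 920 measured genes of chromosome 3, Selenbp2 lies 33 genes from Mcl1, Trim2 236, Asic5 251 and Mme 314, all on the same side. Within 200 genes of Mcl1, 3.74% of 401 genes had non-overlapping groups, and farther away 3.85% of 519. Sequence differences around the floxed allele and effects of the loss of Mcl1 cannot be told apart here.

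Several other genes of this chromosome had non-overlapping groups without passing the threshold in fed livers, and are named after their values were seen. Sucnr1, the succinate receptor, lay at 8.70, 7.71, 8.56, 8.25 and 8.26 in fed WT livers and at 6.66, 6.56, 6.62, 7.61 and 7.08 in fed Mcl1(L-/-) livers, a difference of -1.39 (SE 0.31, adjusted p = 0.117). Its neighbour Aadac, arylacetamide deacetylase, an endoplasmic reticulum esterase, differed by -0.57 (SE 0.15, adjusted p = 0.259). In fasted livers both were called, with differences of -2.67 (adjusted p = 2.57e-05) and -1.13 (adjusted p = 0.000128). Cct3, a subunit of the cytosolic chaperonin, differed by 0.71 (SE 0.14, adjusted p = 0.071) in fed livers and by 0.59 (adjusted p = 0.0163) in fasted ones.

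**Figure D3:**
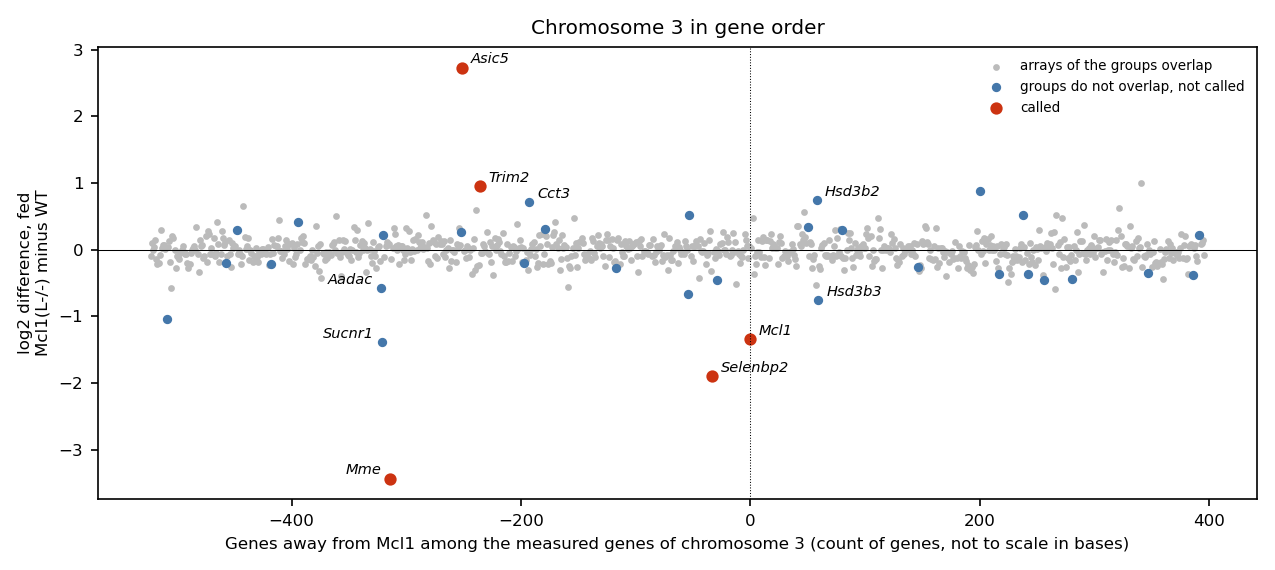
Difference in log2 signal between fed Mcl1(L-/-) and fed WT livers for the 920 measured genes of chromosome 3, in gene order from Mcl1 (dotted line; x axis in genes, not bases). Grey points are genes whose arrays overlap between the groups, blue points those that do not overlap, and red points the 5 called genes, 4 of which lie to the left of Mcl1.

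The rest of the BCL2 family showed no called change in fed livers. Among the 7 other survival members, Bcl2l1, the gene of BCL-XL, lay between 5.54 and 5.81 in WT livers and at 5.89, 6.04, 5.95, 5.44 and 5.95 in Mcl1(L-/-) livers, a difference of 0.16 (interval -0.30 to 0.63, adjusted p = 0.97). In 4 of the 5 Mcl1(L-/-) livers it was above every WT liver, and replicate 4 was below them all; without it the Bcl2l1 difference was 0.27. In fasted livers Bcl2l1 rose by 1.13 (adjusted p = 0.00524), while the change of the difference with feeding did not pass (adjusted p = 0.219). Bcl2 differed by 0.19 (interval -0.21 to 0.59), and by 0.01 without Mcl1(L-/-) replicate 1, where it was high; Bcl2l2, the gene of BCL-W, differed by 0.12 (interval -0.16 to 0.40). The A1 genes Bcl2a1a, Bcl2a1b and Bcl2a1d, near-identical copies whose signals may be shared, differed by 0.20, 0.28 and 0.30, and Bcl2l10 by -0.04.

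Of the pore formers, Bax was not analysed here, and Bak1 differed by -0.25 (interval -0.52 to 0.01, adjusted p = 0.808) and Bok by 0.29 (interval -0.02 to 0.60, adjusted p = 0.808). Among the 10 BH3-only and related members, which start the pathway, 3 had a higher mean and the median was -0.09 (-0.14 without Mcl1(L-/-) replicate 2). The largest difference was in Bid, which links death receptors to mitochondria, with -0.46 (interval -0.83 to -0.08, unadjusted p = 0.0194, adjusted p = 0.651). Bbc3, the gene of PUMA, differed by 0.21, Pmaip1, the gene of NOXA and a partner of MCL-1, by 0.12, and Bcl2l11, the gene of BIM, by -0.08. The mitophagy receptors Bnip3 and Bnip3l differed by -0.22 and -0.08, and Bad, Bik, Bmf and Hrk by 0.08, -0.14, -0.16 and -0.09. Of the 19 measured family members other than Mcl1, 13 moved by over 1.5 times when 1 fed array was left out, all with differences of 0.21 or less in size, and 3 of them changed sign: Bad, Bcl2l10 and Bcl2l11.

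Adjusted p between 0.05 and 0.1 was found for 8 probe sets, from 0.0683. Ide, Saa3 and Srrt are described here from among them, named after their values were seen. Ide, insulin-degrading enzyme, lay at 8.11, 8.88, 8.74, 8.77 and 8.87 in WT livers and from 7.68 to 8.22 in Mcl1(L-/-) livers, a difference of -0.74 (SE 0.14, adjusted p = 0.0683), with only WT replicate 1 in the range of the other group. The Ide difference was called without WT replicate 1 (-0.88, adjusted p = 0.00253) and without Mcl1(L-/-) replicate 4 (-0.82, adjusted p = 0.0279). Saa3, serum amyloid A3, lay between 5.63 and 6.65 in WT and between 6.80 and 7.74 in Mcl1(L-/-) livers, a difference of 1.06 (SE 0.21, adjusted p = 0.0776; 0.0301 without WT replicate 2). Srrt, which takes part in RNA processing at the cap, differed by 0.57 (SE 0.11, adjusted p = 0.0846).

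The pathway lists are described by counts and medians, read against the whole array, whose median was 0.00 and of which 3.40% of probe sets had an unadjusted p under 0.05 and a higher mean in Mcl1(L-/-) livers, and 3.04% one with a lower mean. Of 78 lists, 4 held a called member: the survival members of the BCL2 family (Mcl1), male-biased liver genes (Selenbp2), and matrix genes and damage-associated macrophage markers, both through Mmp12. No other member of any list was called, and the values that follow carry no call in the fed livers unless one is given.

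Chaperones of the endoplasmic reticulum had higher means in 19 of 21 measured members, with a median of 0.16; 4 had an unadjusted p under 0.05, all higher. Hspa5, the gene of BiP, the main chaperone there, lay at 10.05, 9.86, 9.60, 9.67 and 10.02 in WT livers and at 10.35, 10.54, 10.31, 10.45 and 10.42 in Mcl1(L-/-) livers, with no overlap, a difference of 0.57 (SE 0.11, adjusted p = 0.071; 0.0472 without WT replicate 1). Hyou1, which works with BiP, lay between 7.76 and 8.24 in WT and between 8.54 and 8.88 in Mcl1(L-/-) livers, a difference of 0.63 (SE 0.13, adjusted p = 0.108). Creld2 differed by 0.68 (SE 0.23, adjusted p = 0.554). The mean signal of the 21 members was 7.56 to 7.82 in WT arrays and 7.82 to 8.0 in Mcl1(L-/-) arrays, ranges that met without crossing. In fasted livers the median of the list was -0.09.

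Of the targets of the integrated stress response, the pathway that slows translation under stress, 12 of 24 had a higher mean, and the median was 0.02. Its largest member was Atf3, an early stress transcription factor, at 6.0, 5.17, 4.05, 4.01 and 4.0 in WT livers and at 8.22, 5.63, 7.74, 3.94 and 9.16 in Mcl1(L-/-) livers. The difference of 2.29 (SE 0.79, adjusted p = 0.561) rested on replicates 1, 3 and 5, while replicate 4 was below all WT livers; without replicate 4 it was 3.04 (adjusted p = 0.134). Asns, asparagine synthetase, differed by 0.79 (SE 0.27, adjusted p = 0.537). The sign of this small median turned without Mcl1(L-/-) replicate 5 (-0.05), without WT replicate 2 (-0.06) and without dim probe sets (-0.03).

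Acute phase, interferon, MHC and chemokine genes had mostly higher means. Inflammasome and pyroptosis genes did not, with 6 of 17 higher and a median of -0.04. Of 25 acute phase proteins, which the liver secretes in inflammation, 18 had a higher mean, 7 with an unadjusted p under 0.05, and 1 was lower at that level; the median was 0.17. Lcn2, lipocalin 2, lay at 5.88, 7.17, 5.25, 4.50 and 6.20 in WT livers and at 9.67, 7.20, 6.61, 9.49 and 7.68 in Mcl1(L-/-) livers, a difference of 2.33 (SE 0.50, adjusted p = 0.108). Lcn2 was called without Mcl1(L-/-) replicate 3 (adjusted p = 0.0401) and without WT replicate 2 (adjusted p = 0.0376). Saa2, serum amyloid A2, differed by 1.94 (SE 0.42, adjusted p = 0.109; 0.0313 without Mcl1(L-/-) replicate 2), from 5.20 to 6.36 in WT and from 6.51 to 9.54 in Mcl1(L-/-) livers. Replicates 1 and 4 of the Mcl1(L-/-) group were the highest for both genes.

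Of 35 interferon-stimulated genes, 29 had a higher mean, 10 with an unadjusted p under 0.05 (6 without WT replicate 4) and none lower at that level, with a median of 0.15. Their mean signal was 4.17 to 4.31 in WT arrays and 4.35 to 4.49 in Mcl1(L-/-) arrays, without overlap. Gbp3, a guanylate-binding protein, differed by 0.62 (SE 0.17, adjusted p = 0.343) and Cxcl9, a chemokine that draws T cells, by 0.59 (SE 0.25, adjusted p = 0.695), or 0.33 without Mcl1(L-/-) replicate 2. All 17 genes of MHC and antigen presentation had a higher mean, with a median of 0.19 and 3 at an unadjusted p under 0.05; their mean signal was 6.28 to 6.40 in WT and 6.48 to 6.62 in Mcl1(L-/-) arrays. The class II genes H2-Aa and H2-DMb1 differed by 0.60 (SE 0.19) and 0.45 (SE 0.19). In fasted livers the medians of these lists were -0.07 and -0.04. Of 22 NF-kB and chemokine genes, 16 had a higher mean, with a median of 0.11; Cxcl1, a neutrophil chemokine, differed by 1.15 (SE 0.27, adjusted p = 0.159) and Vcam1, an adhesion molecule, by 0.88 (SE 0.25, adjusted p = 0.384).

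**Figure D4:**
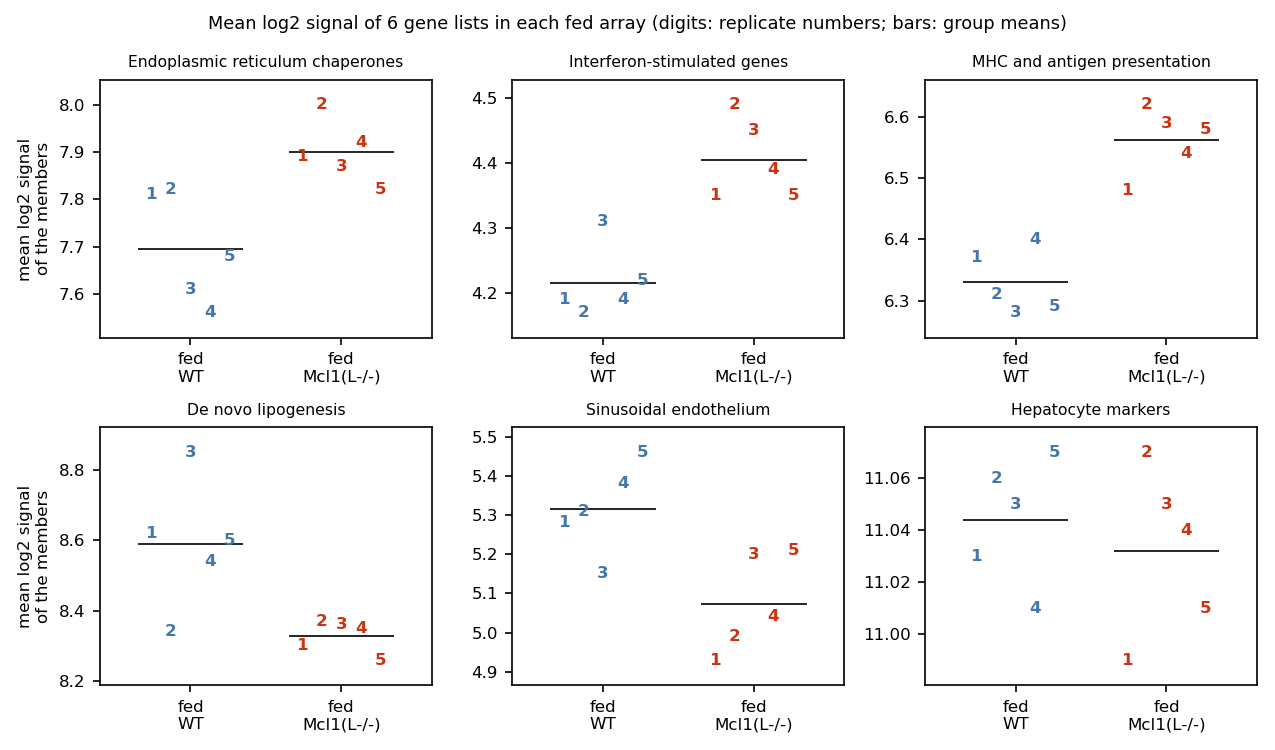
Mean log2 signal of the measured members of 6 gene lists in each fed array; digits are replicate numbers, bars group means, and the y axes differ between panels and do not start at 0. Interferon-stimulated genes and MHC genes do not overlap between the groups, sinusoidal endothelial markers and lipogenic genes overlap with lower values in Mcl1(L-/-) livers, and hepatocyte markers span 10.99 to 11.07 over all 10 arrays.

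No gene on the lists of death, the p53 response and proliferation was called. Of 18 death receptor, caspase and necroptosis genes, 9 had a higher mean and the median was 0.00; Mlkl, the executor of necroptosis, differed by 0.67 (SE 0.22, adjusted p = 0.525) and Diablo, which frees caspases from inhibition, by 0.47 (SE 0.16, adjusted p = 0.565). Of 27 p53 targets, 22 had a higher mean, with a median of 0.11 and 2 at an unadjusted p under 0.05 (4 without Mcl1(L-/-) replicate 4 and 4 without WT replicate 1): Btg2, a growth inhibitor, with 1.92 (SE 0.58, adjusted p = 0.45; 0.0466 without Mcl1(L-/-) replicate 4), and Cdkn1a, the gene of the cell cycle inhibitor p21, with 1.25 (SE 0.44, adjusted p = 0.574). Cdkn1a lay at 3.26, 4.05, 2.83, 3.59 and 3.19 in WT livers and at 5.31, 6.26, 3.47, 3.83 and 4.29 in Mcl1(L-/-) livers, so that replicates 1 and 2 were highest and the groups overlapped.

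Of 27 cell cycle genes, 20 had a higher mean, 7 with an unadjusted p under 0.05 and none lower at that level. The median was 0.16, and 0.13 to 0.44 under the changes of processing that kept all arrays or only the fed ones. One of these left out dim probe sets, so that its median covers only the members that remained. Their mean signal was low, at 2.73 to 2.84 in WT and 2.78 to 3.28 in Mcl1(L-/-) arrays, below the median probe set level of 3.41 in WT livers. Ccnb2, cyclin B2, differed by 0.73 (SE 0.26, adjusted p = 0.577; 0.41 without Mcl1(L-/-) replicate 2), with 5.92 in Mcl1(L-/-) replicate 2 and 3.73 to 5.03 in the other 4 against 3.61 to 4.25 in WT. Ccne1, cyclin E1, differed by 0.72 (SE 0.21, adjusted p = 0.384; 0.96 and 0.0153 without Mcl1(L-/-) replicate 4). Without that array the median of the cell cycle list was 0.25, with 11 genes at an unadjusted p under 0.05; without Mcl1(L-/-) replicate 2 it was 0.12, with 4. Of 22 DNA replication genes 14 had a higher mean, with a median of 0.06, which ran from 0.02 (without WT replicate 2) to 0.14 (without Mcl1(L-/-) replicate 3) when 1 fed array was left out. Mcm6, a subunit of the replicative helicase, differed by 0.75 (SE 0.29) and Rrm2, which makes deoxynucleotides, by 0.47 (SE 0.29); without Mcl1(L-/-) replicate 2 these were 0.41 and 0.26, and Rrm2 was 0.76 without replicate 4. Mad2l1, described above, is on neither list.

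Of 24 genes of YAP signalling and hepatocyte regeneration, 21 had a higher mean, with a median of 0.21. At an unadjusted p under 0.05, 7 were higher (5 without Mcl1(L-/-) replicate 1, 9 without replicate 4) and 1 was lower. Their mean signal overlapped, from 4.70 to 5.41 in WT and from 4.94 (replicate 4) to 6.11 in Mcl1(L-/-) arrays. Myc, a growth transcription factor, lay at 4.75, 3.95, 3.34, 3.20 and 3.42 in WT livers and at 7.19, 7.21, 4.77, 4.83 and 6.20 in Mcl1(L-/-) livers, with no overlap. Its difference of 2.31 (SE 0.51) missed the threshold (adjusted p = 0.117), and in fasted livers it rose by 1.97 (adjusted p = 0.0276).

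Mitochondrial genes differed by small amounts. Of 35 complex I subunits, 9 had a higher mean and the median was -0.06, with 4 lower and 1 higher at an unadjusted p under 0.05. The 4 fell to 1 without Mcl1(L-/-) replicate 5, and to 2 without Mcl1(L-/-) replicates 1, 2 or 3 or WT replicates 1 or 4, each left out alone. Ndufc1 and Ndufa3, accessory subunits, differed by -0.32 (SE 0.12) and -0.30 (SE 0.10). Of 40 genes of complexes II to V, 10 had a higher mean, with a median of -0.05 (-0.03 without WT replicate 1); Sdhc, an anchor of succinate dehydrogenase, differed by -0.28 (SE 0.11). Over 20 genes of beta-oxidation and the carnitine shuttle, which bring fatty acids into mitochondria and burn them, the median was -0.03 (0.06 without Mcl1(L-/-) replicate 1) and none had an unadjusted p under 0.05. Among 16 mitochondrial proteases and chaperones the median was 0.01 (-0.01 without Mcl1(L-/-) replicate 2), and the protease subunits Afg3l1 and Afg3l2 differed by 0.56 (SE 0.14, adjusted p = 0.249) and 0.30 (SE 0.12).

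In lipid metabolism, lipogenic genes had lower means. Of 18 genes of de novo lipogenesis, which turns carbohydrate into fat, 2 had a higher mean, and 6 had an unadjusted p under 0.05, all lower; the median was -0.27, and -0.20 in fasted livers. Me1, malic enzyme, a source of NADPH, lay at 9.35, 9.27, 9.70, 9.43 and 9.32 in WT livers and at 8.45, 8.25, 8.87, 8.64 and 9.04 in Mcl1(L-/-) livers, with no overlap, a difference of -0.76 (SE 0.20, adjusted p = 0.249). Acacb, the acetyl-CoA carboxylase at mitochondria, differed by -0.49 (SE 0.13, adjusted p = 0.259), also without overlap.

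Of 26 targets of PPARa, the nuclear receptor of the fasting response, 8 had a higher mean and the median was -0.13 (-0.05 without Mcl1(L-/-) replicate 1). Acot3, an acyl-CoA thioesterase, differed by -1.58 (SE 0.50, adjusted p = 0.491) and Cyp4a14, a fatty acid hydroxylase, by -1.29 (SE 0.61, adjusted p = 0.772). Cyp4a14 lay at 4.84 in Mcl1(L-/-) replicate 1, at 7.98 in replicate 4 and between 9.54 and 9.80 in the other 3, against 8.04 in WT replicate 1 and 9.93 to 10.22 in the other WT livers. Without Mcl1(L-/-) replicate 1 the Cyp4a14 difference was -0.40, and without WT replicate 1 it was -1.69. In fasted livers the median of the list was 0.47, and 9 members were called, all higher.

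Of 17 genes of cholesterol synthesis, 13 had a higher mean, with a median of 0.20 in fed livers (0.04 without WT replicate 2) and -0.95 in fasted livers, where 8 were called, all lower. Sqle, squalene epoxidase, lay at 6.91, 5.72, 7.35, 6.10 and 6.81 in fed WT livers and between 7.12 and 7.46 in fed Mcl1(L-/-) livers, a difference of 0.73 (SE 0.37, adjusted p = 0.808). Hmgcs1, which makes the precursor of mevalonate, differed by 0.55 (SE 0.29, adjusted p = 0.821; 0.34 without WT replicate 2). For both genes WT replicate 2 was the lowest fed array.

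The gluconeogenesis list, 19 genes, had a median of 0.02. Igfbp1, a secreted binding protein of insulin-like growth factors that insulin represses, differed by 1.07 (SE 0.45, adjusted p = 0.679), and Pck1, the enzyme that commits carbon to glucose, by 0.32 (SE 0.10, adjusted p = 0.45), from 10.74 to 11.02 in WT and from 11.04 to 11.36 in Mcl1(L-/-) livers. Among 26 genes of iron and heme, Alas1, the first enzyme of heme synthesis, differed by 0.54 (SE 0.12, adjusted p = 0.117; 0.0313 without WT replicate 1) and Tfrc, the transferrin receptor, by 0.88 (SE 0.32, adjusted p = 0.608).

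Whole liver was measured, so fewer cells of a type and less RNA per cell cannot be told apart. Markers of the sinusoidal endothelium, the cells that line the liver's capillaries, had lower means in 18 of 20 measured genes; 7 had an unadjusted p under 0.05, all lower, and the median was -0.29. Dnase1l3, a secreted nuclease of these cells, lay at 7.33, 7.01, 6.88, 7.19 and 7.09 in WT livers and at 6.45, 6.07, 6.62, 6.56 and 6.61 in Mcl1(L-/-) livers, a difference of -0.64 (SE 0.16, adjusted p = 0.249) without overlap. Gpr182, an endothelial receptor, differed by -0.49 (SE 0.17, adjusted p = 0.586). The mean signal of the 20 markers was 5.15 to 5.46 in WT and 4.93 to 5.21 in Mcl1(L-/-) arrays. In fasted livers the median was 0.32.

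Markers of resident Kupffer cells, 17 genes, had a median of 0.07 (-0.02 without Mcl1(L-/-) replicate 2 and 0.15 without WT replicate 2) and none with an unadjusted p under 0.05. Slc40a1, the iron exporter ferroportin, differed by -0.36 (SE 0.27) and C1qc, a complement subunit made by macrophages, by 0.31 (SE 0.19; 0.19 without Mcl1(L-/-) replicate 2). Of 17 markers of monocytes and recruited macrophages 13 had a higher mean, with a median of 0.10 (0.03 without WT replicate 1); Ms4a7 and Lst1 differed by 0.33 (SE 0.16; 0.16 without Mcl1(L-/-) replicate 2) and 0.28 (SE 0.11). Among 14 markers of damage-associated macrophages, to which Mmp12 belongs, 11 had a higher mean. At an unadjusted p under 0.05, Mmp12 was the only member higher and Fabp5 the only member lower. The mean signal of the list was 4.11 to 4.23 in WT and 4.25 to 4.93 in Mcl1(L-/-) arrays. That mean includes Mmp12, and whether the groups would separate without it was not tested. Fabp5, a fatty acid-binding protein on the same list, differed the other way, by -1.04 (SE 0.24, adjusted p = 0.155), without overlap. Like the genes described above, Fabp5 lies on chromosome 3, the chromosome of Mcl1, 509 genes from it. The part of any change in cell numbers in the Mmp12 rise was not tested.

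Of 28 genes of the extracellular matrix, 22 had a higher mean, 6 with an unadjusted p under 0.05, with a median of 0.13 (0.07 without Mcl1(L-/-) replicate 2 and 0.20 without WT replicate 5); beyond Mmp12 none was called. Over 19 stellate cell markers, the fibre-forming cells of the liver, the median was 0.14 (0.03 without Mcl1(L-/-) replicate 2). Col3a1, a collagen chain, differed by 0.67 (SE 0.22, adjusted p = 0.511; 0.38 without Mcl1(L-/-) replicate 2), with 5.41 in Mcl1(L-/-) replicate 2 and 3.88 to 4.25 in the other 4 against 3.25 to 3.88 in WT. Acta2, smooth muscle actin, differed by -0.58 (SE 0.16, adjusted p = 0.371). The bile duct list, 15 genes, had a median of -0.01 that turned to 0.20 without dim probe sets. It includes Krt18 and Krt8, the keratin pair that hepatocytes also make, with differences of 0.77 (SE 0.16, adjusted p = 0.108) and 0.71 (SE 0.19, adjusted p = 0.294), both without overlap. In fasted livers Krt18 rose by 0.80 (adjusted p = 0.00621).

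**Figure D5:**
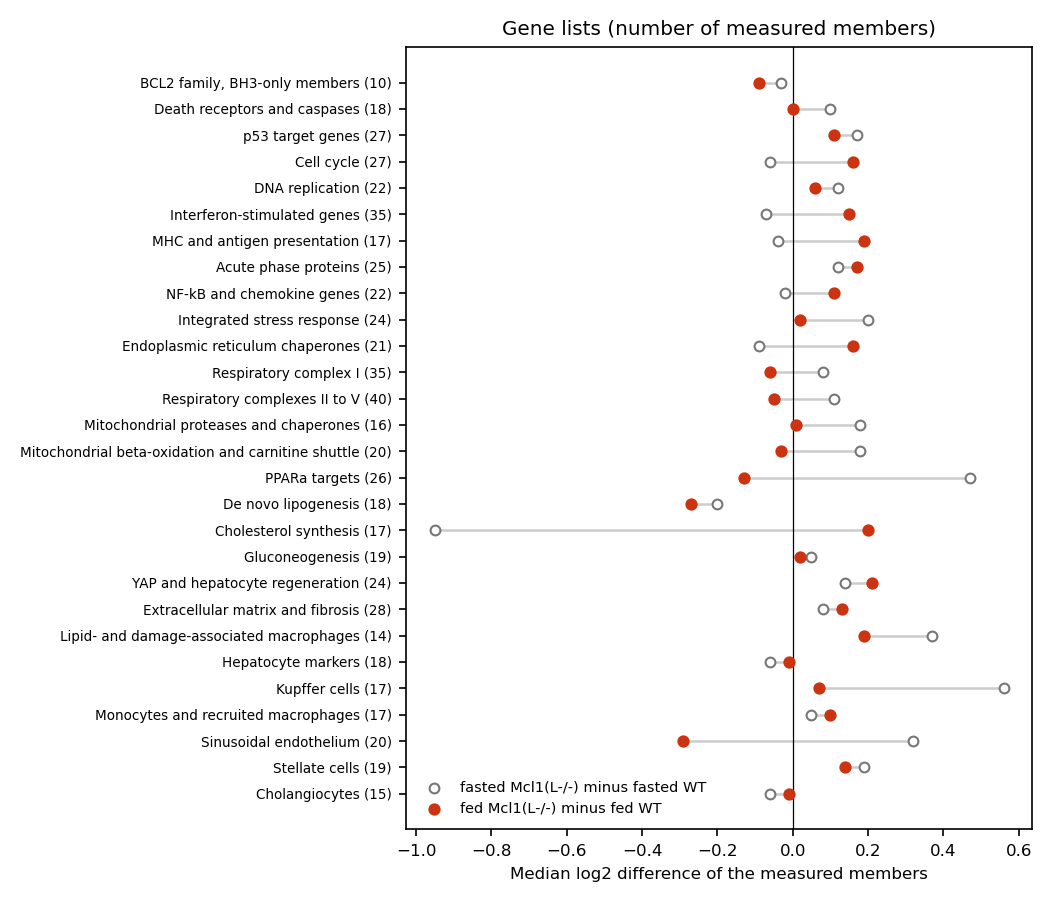
Median log2 difference, Mcl1(L-/-) minus WT, of the measured members of 28 gene lists in fed livers (red) and fasted livers (open), with the number of measured members in brackets; no array is shared between the 2 comparisons. Cholesterol synthesis (0.20 and -0.95), PPARa targets (-0.13 and 0.47) and sinusoidal endothelium (-0.29 and 0.32) have medians of opposite sign in the 2 feeding states. The change in these medians was not tested, and in each of these lists 1 member was called for a change of the genotype difference with feeding.

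The same genotype comparison in fasted livers called 1109 probe sets, 4.99% of those tested, 738 higher and 371 lower, at the same number of arrays and with the same spread estimate. Without 1 fasted array the count was 497 (Mcl1(L-/-) replicate 2) to 1707 (Mcl1(L-/-) replicate 3). All 8 genes called in fed livers had the same sign in fasted livers, and 3 were called there: Mcl1, Mme and Asic5. Across the 22206 probe sets the fed and fasted differences had a Pearson correlation of 0.18, which is a description over probe sets that share arrays within each comparison.

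The test of whether the genotype difference changed with feeding called 30 probe sets, 0.135% of those tested, none of them among the 8 fed calls, of which 7 had an unadjusted p under 0.05 in that test; without 1 array the count was 9 (fasted WT replicate 2) to 331 (fasted Mcl1(L-/-) replicate 3). Of the 30, 27 were called in the fasted comparison, 25 had opposite signs in the 2 feeding states and 14 had an unadjusted p under 0.05 in fed livers. From these 14, 7 are named here after their values were seen, for the size or separation of their fed difference. Hsd3b2, a steroid dehydrogenase 58 genes from Mcl1 with close copies nearby, lay between 7.75 and 8.13 in fed WT and between 8.44 and 8.90 in fed Mcl1(L-/-) livers. Its difference was 0.74 fed and -2.03 fasted (test of the change, adjusted p = 0.000329). Its neighbour Hsd3b3 had a lower mean in both states, with differences of -0.75 fed and -2.36 fasted.

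The other 6 also had differences of opposite sign in the 2 feeding states. Hyou1 differed by 0.63 fed and -0.41 fasted (adjusted p of the change 0.022), Srrt by 0.57 and -0.25 (0.0382) and Wwc1, the gene of the Hippo pathway protein KIBRA, by 0.43 and -0.49 (0.0281). Gys2, liver glycogen synthase, lay between 8.91 and 9.60 in fed WT and between 8.35 and 8.86 in fed Mcl1(L-/-) livers, and differed by -0.49 fed and 0.49 fasted (0.0281). Mrc1, the mannose receptor of sinusoidal endothelium and macrophages, differed by -0.44 and 0.56 (0.022). Rab30, a Golgi GTPase, differed by -0.79 and 2.25 (0.022); its fed difference was -0.49 without WT replicate 2.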

How the data were processed

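Liver RNA of 20 mice was measured on an Affymetrix mouse array. The p-values set a difference between groups against the spread between replicates of the same group, estimated over all groups. The authors deposited 1 table of log2 signals, made with RMA and Partek 7.0 per the submitters' processing notes; base 2 is taken from the range of the values and the use of RMA, and RMA commonly brings arrays to a common distribution, which would hide a shift of all genes. The table holds no detection calls, so that low signals cannot be told from background. Of 22206 probe sets, 19572 had 1 symbol and 2634 none; genes with several were read from the brightest. Chromosomes and gene order are from RefSeq's GRCm38.p6 table; no source used here names the array's build.

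Differences were fitted with limma 3.58.1 (R 4.3.3), 1 mean per group over 20 arrays, with Benjamini-Hochberg adjustment over all probe sets and a threshold of 0.05; the fit was tested on simulated data. Intervals are 95%. Genes were named by rule: the BCL2 family, up to 20 called each way, the called or 2 largest members of a list, and called genes within 200 of Mcl1. Exceptions are stated where they occur, and Alb, Hspa5, Fabp5 and Selenbp1 were also named outside this rule. Members and lists were chosen with earlier results of these data known. Alternatives changed the normalization, moderation, array weights, dim probe sets, the fold required, the arrays fitted, the replicate block, or left out each array.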

Additional observations from a re-analysis of the deposited data

Results flagged for a closer look

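For each named gene, the highest and lowest of the 5 fed arrays of a group were compared with the other 4 by Dixon's test, which flags about 1 in 20 groups by chance; 17 of 182 groups were flagged. In Mcl1(L-/-) replicate 2, 5 genes stood above the other 4 arrays: Cxcl9 at 6.79, Vcam1 at 6.62, Col3a1 at 5.41, Ms4a7 at 3.33 and Alb at 12.53. In Mcl1(L-/-) replicate 1, Bcl2 (3.75) and Bcl2l10 (2.56) were high. In Mcl1(L-/-) replicate 4, Mme was high at 5.28, against 2.59 to 2.77 in the other 4, and Bcl2l1 low at 5.44. Mrc1 was high in Mcl1(L-/-) replicate 5 (6.48). WT replicate 1 was low for Bnip3l (7.43), Insc (2.57), Ide (8.11) and Cyp4a14 (8.04). Rab30 was high in WT replicate 2 (6.91), Bak1 low in WT replicate 3 (4.21) and Afg3l1 high in WT replicate 5 (5.15).

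The 7 genes named from the 30 called for a change of the genotype difference with feeding were chosen for that call, so their values are a description. The fasted minus the fed difference was -2.77 for Hsd3b2, -1.04 for Hyou1, -0.92 for Wwc1, -0.82 for Srrt, 0.98 for Gys2, 1.0 for Mrc1 and 3.04 for Rab30.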

How the results depend on the processing

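The 8 calls in fed livers were 26 with array weights and 15 with the variance trend and robust moderation (6 of the 8 among them), and 7 to 16 when 1 array was left out. They were 7 with a required difference of 1, 7 without dim probe sets, 8 with median centring, 9 with quantile normalization and 10 in the fit on the 10 fed arrays alone, which kept 5. The 1109 fasted calls were 158 with a required difference of 1, 399 in the fit on 10 arrays and 497 to 1707 without 1 array; 738 of them were higher, 880 of 1152 with median centring and 561 of 1020 with quantile normalization. The 30 interaction calls were 55 with array weights, 52 without dim probe sets and 9 to 331 without 1 array. Of 30, 18 were higher, against 27 of 38 with median centring and 17 of 35 with quantile normalization. The cause was not tested. With the replicate block, 8 fed, 924 fasted and 20 interaction probe sets were called. Deviations of same-numbered fed WT and Mcl1(L-/-) arrays had correlations of -0.0394 to 0.166, over 0.1 in only 1 of 5 pairs. Those of differently numbered arrays were -0.136 to 0.124. The numbers were not taken as pairs. Over 91 named genes and 1535 refitted values no call changed sign, and 31 values, in 15 genes, gained one. Only the 8 called genes could lose a call. They did so in 9 refitted values, all in Selenbp2, Trim2, Mad2l1 and Mmp12. List medians under these settings, and list counts without 1 array, were added after seeing the data; 7 of 28 medians, all within 0.07 of 0, changed sign. The number of arrays limits the precision: the median SE was 0.135 for a fed difference and 0.19 for the interaction.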
